A study of Mus musculus with 11 samples.

Results

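Interferon-stimulated genes are genes that cells switch on after an interferon binds its receptor. The 9 examined here are Isg15, Rsad2, Ifit1, Ifit2, Ifit3, Irf7, Oasl2, Ifi30 and Cxcl9, chosen by gene symbol from the 28692 genes of the count tables and followed through endothelial, tubular, stromal and immune cells of mouse kidney. The first 7 encode antiviral proteins or their regulator and are called the antiviral members below. The libraries came from kidneys of male C57Bl/6 mice, 3 for each injury and 5 controls. The injuries were made at 10 weeks of age, and the kidneys were taken at day 28 after them. In unilateral ischemia/reperfusion (UIR, 3 libraries) the left renal pedicle had been clamped for 30 minutes at 37 °C, and in unilateral ureteral obstruction (UUO, 3 libraries) the left ureter had been tied off for good. The 5 control libraries came from naive mice of the same strain, sex and age, so they had no sham operation. Per the series' design text the controls were made in 3 batches, and no batch is given for the injured libraries, so batch and injury cannot be told apart.

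Type I interferons (alpha and beta) and type III interferons (lambda) signal through Janus kinases to transcription factors that bind the interferon-stimulated response element, whereas interferon-gamma acts mainly through gamma-activated sites. Among the effectors, Isg15 is a ubiquitin-like protein that is attached to other proteins, Rsad2 (viperin) is an iron-sulfur enzyme that blocks viral replication, the Ifit proteins bind foreign RNA, and Oasl2 belongs to the oligoadenylate synthetase family of RNA sensors. Irf7 is a transcription factor that amplifies type I interferon production. Ifi30 (GILT) is a lysosomal thiol reductase of antigen-presenting cells, and Cxcl9 is a chemokine, classically induced by interferon-gamma, that draws T and NK cells bearing the receptor Cxcr3. In kidney, interferon signalling is best known from viral infection and lupus nephritis.

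The promoters are shown first, because interferon signalling is known to act through the kinds of site named above. A match of letters alone does not show that a site is used. RefSeq promoter windows (GRCm38.p6) were found for all 9 members, with a second promoter for Ifit2, and were searched on both strands over the 250 bases before the start site for the response element core GAAANNGAAA and for the gamma-activated site TTCNNNGAA. The core was present in 978 of 32851 promoters (2.98%), in 24 of the 58 promoters of a list of other interferon effectors (41.4%) and in 4 of the 10 member promoters. The gamma-activated letters were present in 7.02% of all promoters, in 19% of the effector promoters and in 1 member promoter. In each line below, 80 bases are printed 5′ to 3′ on the strand of the gene, with the matches in capitals. Isg15 (chr4:156200847-156200926, minus strand), Rsad2 (chr12:26456529-26456608, minus strand), Ifit1 (chr19:34640759-34640838, plus strand) and Ifit3 (chr19:34583354-34583433, plus strand) hold the core, and Ifit2 (chr19:34550444-34550523, plus strand) holds the gamma-activated letters.
Isg15: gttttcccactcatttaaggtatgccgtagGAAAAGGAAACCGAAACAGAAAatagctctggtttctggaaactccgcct
Rsad2: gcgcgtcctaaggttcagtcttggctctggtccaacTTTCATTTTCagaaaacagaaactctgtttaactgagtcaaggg
Ifit1: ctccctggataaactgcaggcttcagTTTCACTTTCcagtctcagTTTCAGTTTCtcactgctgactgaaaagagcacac
Ifit3: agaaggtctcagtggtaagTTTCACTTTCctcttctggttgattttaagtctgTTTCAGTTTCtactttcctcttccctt
Ifit2: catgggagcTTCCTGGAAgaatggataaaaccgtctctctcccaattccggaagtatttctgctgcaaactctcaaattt
The Isg15 promoter held 3 cores that overlap each other and begin 78, 72 and 66 bases before the start. Ifit1 and Ifit3 held 2 separate cores each, and Rsad2 held 1, at 120 bases before the start. The letters of the core were not in the windows of Irf7, Oasl2, Ifi30 or Cxcl9, nor in either promoter of Ifit2.

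Cells were called from the deposited raw counts, which include empty droplets. After the limits on mitochondrial and hemoglobin reads, genes per cell and doublet scores, 10271 control, 16944 UIR and 13360 UUO cells remained, with a median of 3037 to 5171 UMIs (unique molecular identifiers, each counting 1 captured RNA molecule) per cell across libraries. The limit of 30% mitochondrial UMIs took out 57.0 to 78.9% of called control cells, 23.8 to 37.3% of UIR cells and 3.16 to 7.96% of UUO cells, so the control cells compared here are a selected part of those called. Library pairs shared 216 barcodes in all, against 107.6 expected from the numbers of cells. Cells were clustered without the 9 members and named by markers: PT (proximal tubule), LOH (loop of Henle), DT (distal tubule), principal and intercalated cells of the collecting duct, frTEC (failed-repair tubular epithelial cells), Fibro 1 to 3, endothelium and immune classes. Values below are CPM, the UMIs of a gene summed over all cells of a class in 1 library and scaled to a total of 1000000 UMIs, listed in the order of control replicates 1 to 5, UIR replicates 1 to 3 and UUO replicates 1 to 3. In such sums fewer cells that express a gene and less RNA per cell cannot be told apart. Fold changes are log2 values ± SE from edgeR's quasi-likelihood test over all genes of a class, called at a Benjamini-Hochberg adjusted p under 0.05. A member with too few UMIs in a class was not tested, and one that passed this filter only because of its injured libraries was bound to differ. For such a member the call, its p-value and its survival in alternatives do not by themselves support a difference. The counts of calls below describe the members and do not by themselves support a difference either.

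Across 9 classes, the members rose in many tubular and stromal comparisons. None of the 8 members tested in endothelial cells or in T and NK cells was called higher in the class as a whole. Cxcl9 could not be tested in those classes. In UIR against control, 66 of 81 pairs of a member and a class were tested. Of these, 25 were called higher and 0 lower, with 39 at an unadjusted p under 0.05 in edgeR's test, where 8.57% of all genes tested over the classes were called higher and 7.23% lower. In UUO against control, 63 of 72 pairs were tested, 25 were called higher and 1 lower, against a background of 11.2% and 9.88%. UUO was called above UIR in 6 of 63 pairs and below it in 0, against 0.687% and 1.08% of all genes. By compartment, tubular cells held 20 of the 25 UIR calls (32 pairs tested) and 18 of the 25 UUO calls (29 pairs), and all 6 calls of UUO over UIR. Stromal cells held 3 and 4 calls of 9 pairs, macrophages 2 and 3 of 9, and T and NK cells 0 and 0 of 8.

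**Figure D1:**
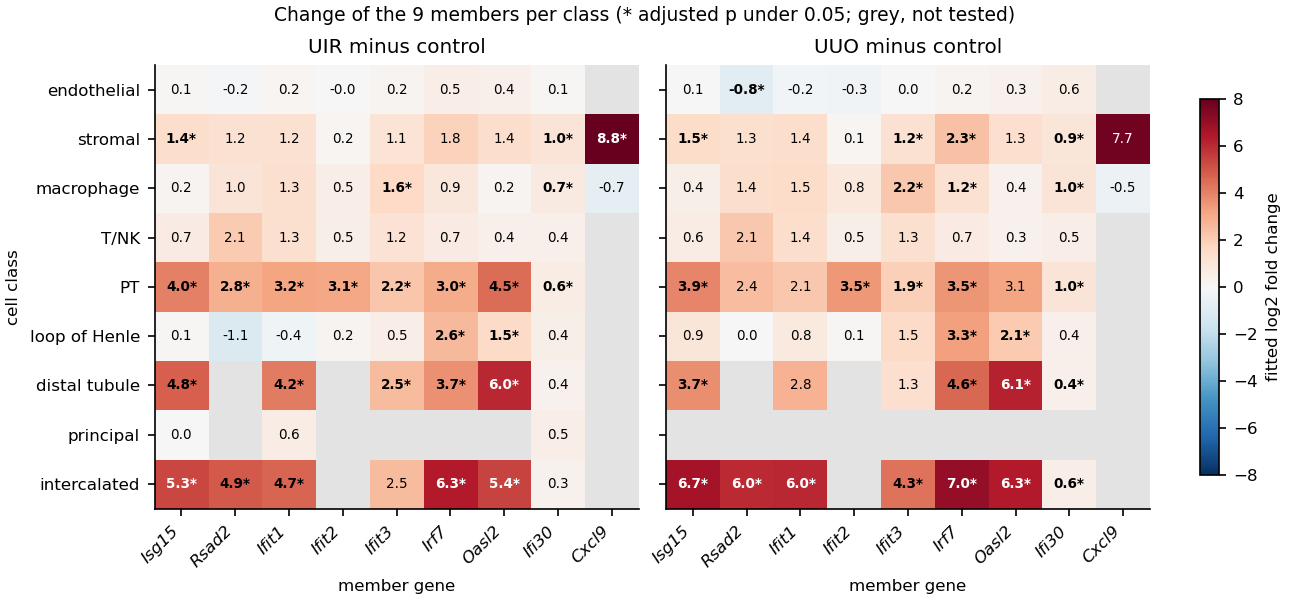
Heat map of the fitted log2 fold change (color and printed value) of each member (columns) in each class (rows), for UIR (left panel) and UUO (right panel) against control, with called pairs starred and untested pairs in grey. The median change of the tested members in intercalated cells is 4.88 in UIR and 6.04 in UUO. It rests on very few control UMIs and is not ranked against other classes, in which other sets of members were tested. Endothelial values run from -0.83 (Rsad2 in UUO) to 0.61 (Ifi30 in UUO). The largest printed values are those of Cxcl9 in stroma, which had no control UMI, so their size is not set by the data and is not ranked against the others.

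In intercalated cells, the acid- and base-secreting cells of the collecting duct, the antiviral members were near 0 in every control library. Of the 6 that could be tested, 5 rose in UIR and 6 in UUO. Isg15 stood at 1.133, 2.22, 0, 0 and 0 CPM in controls, at 18.3, 35.1 and 60.2 CPM in UIR and at 37.9, 144 and 97.2 CPM in UUO. Rsad2 stood at 0, 0, 0, 2.03 and 5.68 CPM in controls, at 38.7, 65.3 and 55.5 CPM in UIR and at 90.0, 131 and 130.0 CPM in UUO. In both genes every injured library lay above every control library. Oasl2 was at 4.53 CPM in control replicate 1 and at 0 in the other 4 controls, and it reached 51.9, 73.3 and 109 CPM in UIR and 86.4, 195 and 150 CPM in UUO. Irf7, the transcription factor of the group, was at 0 in 4 controls and at 1.89 CPM in control replicate 5, at 28.5, 44.0 and 48.6 CPM in UIR and at 51.2, 83.4 and 63.5 CPM in UUO. Ifit1 was at 3.399, 2.22, 0, 2.03 and 0 CPM in controls, at 42.2, 74.7 and 51.0 CPM in UIR and at 67.9, 188 and 186 CPM in UUO. For these 3 genes, too, the control and injured libraries did not overlap. Ifit3 reached 8.07, 20.2 and 9.55 CPM in UIR and 6.17, 76.97 and 41.8 CPM in UUO, from 0 to 3.79 CPM in controls. Ifit2 was too sparse to test, at 0 to 2.22 CPM in controls, 5.31 to 5.76 CPM in UIR and 0.882 to 19.98 CPM in UUO.

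The edgeR changes in intercalated cells in UIR were 5.33 ± 0.92 for Isg15 (adjusted p = 0.00018), 4.88 ± 0.48 for Rsad2 (1.77e-07), 4.65 ± 0.58 for Ifit1 (4.33e-06), 6.33 ± 0.59 for Irf7 (9.66e-08) and 5.43 ± 0.55 for Oasl2 (3.35e-07), while Ifit3 changed by 2.54 ± 0.98 and did not pass (0.0719). In UUO all 6 tested antiviral members passed, with changes of 6.67 ± 0.78 for Isg15, 5.995 ± 0.43 for Rsad2, 6.04 ± 0.51 for Ifit1, 4.33 ± 0.81 for Ifit3, 7.05 ± 0.54 for Irf7 and 6.32 ± 0.51 for Oasl2, and adjusted p-values from 8.41e-10 to 0.000254. The share of all genes of this class called higher was 9.43% in UIR and 13.1% in UUO. These fitted sizes rest on very few control UMIs. The tested antiviral members passed the filter on low counts here only through injured libraries, so their calls and p-values against control add nothing to the levels. Isg15 had 2 control UMIs, and the ratio of pooled counts in UIR was 53.3 (exact 95% interval 14.7 to 441), and that in UUO was 158 (43.5 to 1305). Irf7 had 1 control UMI, with ratios of 116 (20.6 to 4569) and 203 (36.3 to 8037). Without control replicate 2 the Isg15 ratios were 89.6 and 265.3, and without control replicate 5 no Irf7 UMI was left in controls. A control pool held 35 to 64 cells, a UIR pool 179 to 269 and a UUO pool 69 to 108.

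**Figure D2:**
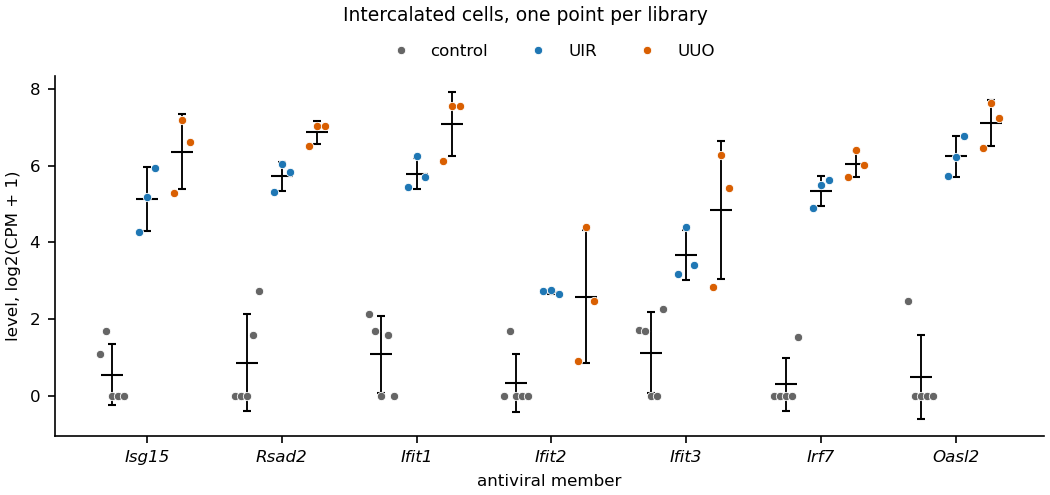
Level, as log2(CPM + 1), of the 7 antiviral members in intercalated cells, with 1 point for each library and bars at the group mean ± SD. In Isg15, Rsad2, Ifit1, Irf7 and Oasl2 the 6 injured libraries lie above the 5 controls, which stand between 0 and 5.68 CPM.

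Ifi30 behaved otherwise in intercalated cells. It was already at 46.7 to 79.6 CPM in controls, was at 94.2 to 103 CPM in UIR and at 107 to 128 CPM in UUO, and its change of 0.33 did not pass in UIR (adjusted p = 0.17). In UUO it rose by 0.56 ± 0.17 (0.0143), a call lost in 5 of 26 alternatives, among them the ones without control replicate 1 and without cells that carried immune markers. Cxcl9 stayed at 0 to 7.58 CPM in every group and was not tested.

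UUO exceeded UIR in intercalated cells for all 6 tested antiviral members, against 0.765% of all genes in this class. The difference was 1.38 ± 0.24 for Ifit1 (adjusted p = 0.00218), 1.12 ± 0.19 for Rsad2 (0.00159), 1.78 ± 0.39 for Ifit3 (0.0161), 1.34 ± 0.30 for Isg15 (0.0176), 0.71 ± 0.18 for Irf7 (0.0393) and 0.89 ± 0.23 for Oasl2 (0.0427). Only for Ifit1 did the difference pass in all 27 alternatives. Rsad2 passed in 26, Ifit3 in 20 of 26, Isg15 in 17, Irf7 in 11 and Oasl2 in 10 of 27. Isg15 lost its call without UIR replicate 1 or 2 or UUO replicate 2 or 3, and Ifit3 without UIR replicate 3 or UUO replicate 2. UUO replicate 1 was the lowest UUO library for each of these 6 genes.

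Immune RNA moved with the same comparison. The summed level of 15 immune markers in the intercalated pools was 18.1 to 31.1 CPM in controls, where Cd3g, Cd3e, Cd79a and S100a9 were at 0, 100 to 128 CPM in UIR and 124 to 154 CPM in UUO, with Cd79a at 0 in both. UMIs of at least 2 of these markers were found in 5 of 235 intercalated cells of controls, in 236 of 635 of UIR and in 141 of 256 of UUO. Leaving those cells out kept the 10 antiviral calls against control that could still be tested, with changes in UIR of 5.54 for Isg15, 5.02 for Oasl2, 5.87 for Irf7, 4.66 for Rsad2 and 4.31 for Ifit1. Ifit3 in UUO was then too sparse to test. The 11 calls held in every other alternative that could test them. This adds no support, since these members passed the filter on low counts only through injured libraries. Of the 6 differences between UUO and UIR, those of Rsad2 and Ifit1 passed without these cells, and that of Ifit3 could not then be tested. Those of Isg15 (1.404, adjusted p = 0.0621), Oasl2 (1.126, 0.0507) and Irf7 (0.78, 0.312) did not pass, although none of them was smaller than with all cells. Free RNA, estimated from the empty droplets, was expected to add at most 1.75 CPM to any antiviral member on average over the libraries of a group. A single pool can lie above that, as the empty droplets of UUO replicate 2 held Isg15 at 97.5 CPM against a UUO mean of 64.6 CPM. The clusters behind the class differed between groups. The cluster led by Atp6v1g3 and Atp6v1c2 held 57.5% of control and 32.9% of UIR intercalated cells, and a cluster led by Adgrf5, Atp6v1g3 and Kit held 57.8% of UUO cells and 19.2% of control cells. Within this second cluster, the summed antiviral members were at 3.77 CPM in 45 control cells, 299 CPM in 176 UIR cells and 572 CPM in 148 UUO cells, and within the first at 7.05, 239 and 419 CPM, values that pool libraries and carry no test.

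In DT cells 6 members were tested, of which 5 rose in UIR and 4 in UUO, against 15% and 18.6% of all genes. Oasl2 was at 0, 1.63, 1.23, 0 and 0 CPM in controls, at 18.0, 15.6 and 100.3 CPM in UIR and at 29.1, 82.9 and 29.5 CPM in UUO. Irf7 was at 0.625, 1.63, 0, 1.53 and 1.10 CPM in controls, at 8.63, 8.33 and 29.8 CPM in UIR and at 16.4, 52.4 and 18.6 CPM in UUO. Neither gene overlapped between control and injured libraries. Oasl2 rose by 6.05 ± 0.98 (adjusted p = 2.90e-05) and 6.13 ± 1.03 (3.43e-05), on 2 control UMIs and with ratios of pooled counts of 97.4 (26.7 to 808) and 114 (31.01 to 952). Leaving out 1 library gave ratios of 39.1 (without UIR replicate 3) to 169 (without control replicate 2) in UIR and 67.3 (without UUO replicate 2) to 198 (without control replicate 2) in UUO. They were 63.5 and 74.4 without control replicate 1 and 160.3 and 188 without control replicate 3. Irf7 rose by 3.66 ± 0.73 (0.000356) and 4.56 ± 0.70 (1.12e-05). Isg15 was at 0 to 3.29 CPM in controls, at 13.8, 10.4 and 125 CPM in UIR and at 20.2, 37.1 and 15.3 CPM in UUO, a rise of 4.76 ± 0.91 (0.000218) and 3.74 ± 1.12 (0.0103). The UUO call for Isg15 was lost without UUO replicate 2 and at a mitochondrial limit of 15%. The antiviral members tested in DT cells passed the filter on low counts only through injured libraries, so their calls and p-values add nothing to the levels.

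UIR replicate 3 stood above the other UIR libraries for all 7 antiviral members in DT cells. Ifit1 was at 6.56, 11.5 and 97.9 CPM in the 3 UIR libraries and at 0 to 6.13 CPM in controls, and it rose by 4.17 ± 0.98 (adjusted p = 0.00168), with the call kept in all 22 alternatives that could test it. Ifit3 was at 4.49, 9.89 and 52.5 CPM in UIR against 0 to 7.68 CPM in controls, and its rise of 2.52 ± 0.74 (0.0103) was lost without control replicate 1, without UIR replicate 3 and with DESeq2. In UUO neither passed, at 2.77 for Ifit1 (0.0959) and 1.33 for Ifit3 (0.299). Rsad2 had no UMI in any control library, and was at 2.76, 4.69 and 20.8 CPM in UIR and 1.27, 2.86 and 4.38 CPM in UUO. Taking 3 counts over all control cells as the limit that a count of 0 allows, it was at least 13.5-fold and at least 4.45-fold higher, and it was too sparse for the test. Leaving out 1 library moved these bounds, to at least 5.40-fold in UIR without UIR replicate 3, which held 44 of the 61 UMIs, and to 8.78-fold in UIR and 2.897-fold in UUO without control replicate 1. Ifi30 rose in UUO from 73.5 to 103 CPM to 125 to 166 CPM, by 0.39 ± 0.15 (0.0431), and stood at 107 to 160 CPM in UIR, a change of 0.36 that did not pass (0.0517). The Ifi30 call was lost in 10 of 24 alternatives. Immune markers summed to 13.2 to 27.6 CPM in controls, 81.5 to 149 CPM in UIR and 120 to 177 CPM in UUO, and the 5 UIR calls held when cells with at least 2 of them were left out, which left too few UUO cells for a test. Of the control DT cells, 58.0% lay in the cluster led by Slc12a3 and Pvalb and 41.4% in that led by S100g and Calb1, whereas a cluster led by Klk1 and Tmem52b held 84.6% of UIR and 90.4% of UUO cells. In the S100g and Calb1 cluster, pooled over libraries and not tested, 155 control and 37 UIR cells held Oasl2 at 0.828 and 0 CPM, Irf7 at 0.828 and 1.47 CPM and the summed antiviral members at 5.79 and 17.6 CPM, against a sum of 202 CPM in the UIR cells of the Klk1 and Tmem52b cluster. Cxcl9 had no UMI in control DT cells and 13 and 1 in UIR and UUO.

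In PT cells, the reabsorbing cells that make up most of the cortex, levels stayed low throughout, yet all 8 tested members rose in UIR and 5 rose in UUO, against 15.1% and 12.7% of all genes. Ifit2 was at 0.663, 1.19, 1.08, 0.416 and 0.701 CPM in controls, at 4.15, 7.56 and 9.53 CPM in UIR and at 2.92, 14.5 and 11.2 CPM in UUO. Irf7 was at 1.11, 0.265, 0.239, 1.35 and 0.501 CPM in controls, at 4.77, 6.79 and 7.31 CPM in UIR and at 17.5, 11.4 and 2.24 CPM in UUO. Isg15 was at 0 to 1.04 CPM in controls, at 4.35, 9.53 and 4.45 CPM in UIR and at 7.30, 9.30 and 2.24 CPM in UUO. Each of these 3 genes was higher in every injured library than in any control, on few UMIs in UUO. Isg15 and Irf7 had 2 UMIs each in UUO replicate 3, and Ifit2 had 2 in UUO replicate 1. The mean level expected from free RNA in UUO was 2.298 CPM for Isg15, 2.124 for Irf7 and 0.6642 for Ifit2. The 2.24 CPM of Isg15 and Irf7 in UUO replicate 3 is near that expectation and is not read as a rise in that library. Ifit2 rose by 3.09 ± 0.34 (adjusted p = 3.24e-06) in UIR and 3.48 ± 0.50 (9.72e-05) in UUO, Irf7 by 2.99 (5.03e-05) and 3.54 ± 0.62 (0.000542), and Isg15 by 4.04 ± 0.55 (3.61e-05) and 3.93 ± 0.90 (0.00445). Oasl2 rose in UIR by 4.49 ± 0.68 (9.92e-05), from 0 to 0.400 CPM to 1.66 to 3.94 CPM, and Rsad2, Ifit1 and Ifit3 rose by 2.84, 3.17 and 2.20. In UUO, Ifit3 rose by 1.90 ± 0.66 (0.0493), a call lost in 16 of 27 alternatives. Rsad2 (2.45, adjusted p = 0.0807), Ifit1 (2.13, 0.292) and Oasl2 (3.14, 0.161) did not pass in UUO. The antiviral members passed the filter on low counts in PT cells only through injured libraries, so their calls and p-values add nothing to the levels.

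Ifi30 moved by smaller steps in PT cells. It was at 32.5 to 42.9 CPM in controls, at 57.9, 63.0 and 57.5 CPM in UIR and at 97.9, 98.2 and 60.5 CPM in UUO, a rise of 0.61 ± 0.13 (adjusted p = 0.0021) and 1.03 ± 0.16 (0.000181). The 8 UIR calls held in every alternative that could test them, which adds no support for the antiviral members, since they passed the filter only through injured libraries. Among the UUO calls, those for Isg15, Ifit3 and Ifi30 were lost when cells with immune markers were left out, where Isg15 changed by 2.62 (adjusted p = 0.381) and Ifi30 by 0.38 (0.340), and that for Isg15 also without UUO replicate 2. The UUO pools held only 59 to 98 PT cells, against 1250 to 1728 in controls. Pooled over libraries and not tested, a cluster with 252 UIR, 33 UUO and fewer than 30 control cells held Ifit2 at 15.4 and 15.6 CPM. In the cluster with 21.4% of control PT cells, control and UIR cells held Ifit2 at 1.41 and 2.19 CPM and the summed antiviral members at 9.28 and 42.3 CPM. In that with 28.3% of UUO cells, the sum was 6.1, 45.5 and 48.9 CPM in control, UIR and UUO, with Isg15 and Ifit2 at 0 in UUO. Immune markers rose with the comparison, from 9.92 to 15.3 CPM in controls to 122 to 255 CPM in UIR and 123 to 280 CPM in UUO. The level expected from free RNA in UIR was 2.47 CPM for Isg15, 2.13 for Irf7, 1.62 for Rsad2, 1.41 for Ifit3, 1.39 for Oasl2, 1.04 for Ifit1 and 0.725 for Ifit2. Cxcl9 was not tested, at 0 to 0.3003 CPM in controls and 0 to 1.53 CPM after injury. The 6 UIR calls that could be tested after that expectation had been subtracted held, and Rsad2 and Oasl2 were then too sparse.

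In LOH cells, Irf7 and Oasl2 were the 2 of 8 tested members that rose in each injury. That count is near the share of all genes called higher, 17.9% and 20.5%, and is not read as a result about the members. Irf7 was at 1.76, 0, 5.44, 2.78 and 0 CPM in controls, at 10.1, 22.0 and 13.4 CPM in UIR and at 19.2, 30.8 and 25.5 CPM in UUO, without overlap between control and injured libraries. It rose by 2.58 ± 0.66 (adjusted p = 0.00383) and 3.31 ± 0.61 (0.000123), in every alternative that could test it. Irf7 passed the filter on low counts in LOH cells only through injured libraries. Its calls, p-values and survival in alternatives therefore add nothing to the levels. Oasl2 was at 1.76, 4.78, 19.1, 13.9 and 0 CPM in controls, at 16.6, 28.4 and 30.4 CPM in UIR and at 22.7, 52.5 and 37.6 CPM in UUO. UIR replicate 1 lay below control replicate 3, and the UIR rise of 1.51 ± 0.54 (0.0338) was lost in 9 of 25 alternatives, among them those without control replicate 1, 2 or 5 or UIR replicate 2 or 3. The 9 include the subtraction of free RNA (1.457, adjusted p = 0.0508) and the fit without cells that carried immune markers (1.279, 0.0559). The UUO rise of 2.08 ± 0.51 (0.00244) was kept in all 26. Isg15 was at 22.9, 9.55, 70.8, 13.9 and 10.5 CPM in controls, with control replicate 3 above 4 of the 6 injured libraries. It was at 9.60, 65.9 and 24.1 CPM in UIR and at 28.6, 81.3 and 73.4 CPM in UUO, changes that did not pass (0.07, adjusted p = 0.952, and 0.94, 0.248). The control pools held 38 to 60 cells, and 98.5% of control LOH cells lay in a cluster led by Egf and Slc12a1, whereas 72.4% of UIR cells lay in one led by Slc12a1, Umod and Cldn10 and 50.5% of UUO cells in one led by Psca and S100a6. Within the Egf and Slc12a1 cluster, pooled over libraries and not tested, the UIR cells were not higher, with Irf7 at 2.16 CPM in 258 control and 1.70 CPM in 74 UIR cells, Oasl2 at 7.56 and 3.39 CPM and the summed antiviral members at 72.4 and 37.3 CPM. Ifit3, at 6.71 ± 5.67 CPM in controls and 23.95 ± 7.65 CPM in UUO, did not pass in UUO (1.52, adjusted p = 0.0564) and did with the replicate block (1.51, 0.0197), which also called Isg15, Rsad2, Ifit1, Ifit3 and Irf7 higher in UUO than in UIR. Rsad2, Ifit1, Ifit2 and Ifi30 changed by -1.15 to 0.44 in UIR and 0.046 to 0.79 in UUO, with none called. Immune markers summed to 2.72 to 29.0 CPM in controls, 67.5 to 103 CPM in UIR and 103 to 118 CPM in UUO. In principal cells, which could be compared only in UIR because UUO had 16 cells, none of the 3 tested members passed, against 2.91% of all genes called higher. Their changes were 0.04 for Isg15, 0.58 for Ifit1 and 0.53 ± 0.19 for Ifi30 (adjusted p = 0.0901).

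In stromal cells the chemokine Cxcl9 had no UMI in any control library, and reached 60.4, 38.7 and 45.2 CPM in UIR and 40.1, 29.6 and 0.562 CPM in UUO. The 238 UIR UMIs lay in 17 of 694 stromal cells and the 154 UUO UMIs in 22 of 795, while 0 of 164 control cells held any. Against a limit of 3 counts over the controls, Cxcl9 was at least 15.7-fold higher in UIR. In UUO it was at least 8.48-fold higher, or at least 5.26-fold without UUO replicate 1. These bounds take UMIs as independent counts, which so few positive cells do not give, and they set no limit on the share of positive cells. Cxcl9 was called in UIR and not in UUO, where UUO replicate 3 was near 0. It passed the filter on low counts only through the injured libraries, so the call adds nothing to these values. The UIR call was lost at a mitochondrial limit of 15%, without both N controls (replicates 2 and 3) and without both AN controls (replicates 4 and 5). By stromal class, Cxcl9 was at 88.4 ± 30.2 CPM in UIR and 25.4 ± 21.3 CPM in UUO (SD, n = 3) in Fibro 1, the matrix-producing fibroblasts. In Fibro 2 it was at 0.715 ± 1.24 CPM in UIR and 20.6 ± 35.7 CPM in UUO, where UUO replicate 1 alone held it (61.8 CPM). Fibro 1 clusters differed, with pooled levels of 139 and 92.7 CPM in UIR and UUO in 1 cluster and of 0.871 and 1.72 CPM in another.

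Isg15 and Ifi30 rose in stroma in both injuries and Irf7 and Ifit3 in UUO, against 8.78% of all genes called higher in UIR and 11.6% in UUO. Isg15 was at 10.1, 10.2, 70.6, 32.4 and 83.6 CPM in controls, at 78.7, 122 and 98.2 CPM in UIR and at 87.0, 137 and 101 CPM in UUO. Control replicate 5 lay within the UIR range, and the rises of 1.43 ± 0.40 (adjusted p = 0.0209) and 1.48 ± 0.40 (0.0124) were lost in 7 and 3 of 26 alternatives, among them those without control replicate 1 or 2 or UIR replicate 2 for UIR and without UUO replicate 2 for UUO. Irf7 was at 0 to 15.1 CPM in controls, at 18.2, 27.3 and 25.4 CPM in UIR and at 41.4, 51.3 and 11.3 CPM in UUO, and passed only in UUO (2.34 ± 0.66, 0.0183). That call was lost in 5 of 25 alternatives, without control replicate 1 or UUO replicate 2 among them. Irf7 passed the filter on low counts in stroma only through injured libraries, so its call adds nothing to these levels. Ifit3 was at 16.8 to 56.6 CPM in controls and at 75.3, 81.9 and 57.4 CPM in UUO. Its change in UIR did not pass (1.08, adjusted p = 0.0801), and in UUO it rose by 1.23 ± 0.39 (0.0336), a call lost in 10 of 26 alternatives, including those without control replicate 1, 2 or 5 or UUO replicate 1 or 2. Ifi30 was at 23.5, 20.4, 20.2, 8.09 and 52.3 CPM in controls, at 54.6, 54.2 and 40.1 CPM in UIR and at 41.4, 54.4 and 51.2 CPM in UUO. Its rises of 1.02 ± 0.32 (0.0417) and 0.95 ± 0.32 (0.0481) were lost in 15 and 14 of 26 alternatives. Rsad2, Ifit1, Ifit2 and Oasl2 did not pass in either injury. With the replicate block, Ifi30 no longer passed (adjusted p = 0.0553 and 0.0615), and Ifit1 (1.26, 0.0113, and 1.53, 0.00181) and Oasl2 (1.45, 0.0309, and 1.376, 0.0333) did.

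The stromal control pools were small, with 23 to 41 cells and 123629 to 298063 UMIs, and an estimated free RNA share of 4.68 to 66.5%. Fibro 3 cells made up 72.0% of them, whereas Fibro 1 had 6 control cells, so the stromal comparison also crosses cell classes. Within the main Fibro 3 cluster, whose libraries were pooled and not tested, Isg15 was at 58.8 CPM in control, 107 in UIR and 133 in UUO cells, and Irf7 at 9.53, 27.6 and 34.0 CPM. Immune markers summed to 5.04 to 64.7 CPM in controls, 112 to 365 CPM in UIR and 188 to 254 CPM in UUO. Without the cells that carried at least 2 of them, Cxcl9 in UIR and Irf7 and Ifit3 in UUO stayed called. For Cxcl9 and Irf7 this adds no support, since they passed the filter only through injured libraries. Isg15, at changes of 1.355 (adjusted p = 0.0669) and 1.375 (0.0513), and Ifi30, at 0.96 (0.102) and 0.79 (0.178), did not pass, each slightly smaller than with all cells.

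Endothelial cells expressed the antiviral members at a high level without injury, and none of the 8 members tested was called higher in the class as a whole. Rsad2 was at 1343, 798, 589, 1019 and 694 CPM in controls, at 736, 912 and 790 CPM in UIR and at 463, 535 and 607 CPM in UUO. The UIR libraries lay inside the control range, UUO replicates 1 and 2 lay below it, and UUO replicate 3 lay within its lower end. Group means were 889 ± 300 CPM (SD, n = 5), 813 ± 89.8 (n = 3) and 535 ± 71.9 (n = 3). Rsad2 fell in UUO by 0.83 ± 0.19 on the log2 scale (adjusted p = 0.00481), a call kept in 27 of 27 alternatives, where 6.5% of all genes were called lower. In UIR it changed by -0.17 ± 0.18 (0.812), and UUO against UIR by -0.65 ± 0.20 (0.112). Isg15 was at 103 to 239 CPM in controls, 167 to 262 CPM in UIR and 152 to 231 CPM in UUO, with changes of 0.11 and 0.05. Irf7 was at 94.3 ± 27.3 CPM in controls, 145 ± 12.7 in UIR and 121 ± 26.6 in UUO, a change of 0.55 in UIR that did not pass (0.137). Ifit1 was at 86.4 ± 39.2, 104 ± 28.2 and 81.5 ± 18.3 CPM in the 3 groups, Ifit2 at 59.1 ± 20.2, 61.1 ± 18.9 and 53.0 ± 17.0 CPM, Ifit3 at 93.2 ± 39.7, 118 ± 37.8 and 106 ± 16.2 CPM and Oasl2 at 82.3 ± 21.3, 114 ± 25.6 and 114 ± 20.8 CPM. Of the 8 members tested, 0 were called higher in either injury, against 1.31% of all genes in UIR and 6.11% in UUO.

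The Rsad2 level differed several-fold among endothelial clusters, whose shares also differed between groups. In the cluster led by Rgcc, Fabp4 and Plvap, genes of peritubular capillaries, Rsad2 was at 2456, 2012, 1967, 3091 and 1680 CPM in controls, at 2625, 2068 and 1927 CPM in UIR and at 1743 and 2247 CPM in UUO replicates 2 and 3, the UUO libraries with at least 20 such cells. The 3 groups overlapped within it. Pooled over libraries and not tested, Isg15 was at 302, 371 and 482 CPM there in control, UIR and UUO and Irf7 at 194, 317 and 403 CPM. The summed antiviral members, mostly Rsad2, were at 3514, 3593 and 3784 CPM. This cluster made up 29.6 ± 13.1% of control, 14.8 ± 5.50% of UIR and 3.86 ± 1.001% of UUO endothelial cells. The cluster led by Ehd3, Igfbp5 and Kdr, genes of glomerular endothelium, had a pooled Rsad2 level of 529 CPM in controls and 403 in UIR and made up 32.2 ± 13.4%, 11.8 ± 4.72% and 1.14 ± 0.54% of the 3 groups. Its control and UIR cells held Isg15 at 25.2 and 68.6 CPM, Irf7 at 12.2 and 34.3 CPM and the summed antiviral members at 650 and 653 CPM. A cluster with 19.7% of control endothelial cells held pooled Rsad2 at 491, 749 and 737 CPM in control, UIR and UUO, and the sum at 1120, 1542 and 1507 CPM. In another, with 7.78% of them, Rsad2 was at 170, 279 and 193 CPM and the sum at 573, 840 and 790 CPM. A cluster led by Ehd3 and Gpihbp1 with low Rsad2, 273 CPM in UIR and 354 in UUO, held 0.308% of control and 13.9% and 26.04% of UIR and UUO endothelial cells. Low levels were also found in a cluster led by Fabp4 and Fam101b (368 and 382 CPM), with 1.21%, 6.32% and 15.04% of the 3 groups, and in one led by Esm1 and Plat (219 and 224 CPM), with 2.2%, 6.36% and 11.5%. The cluster led by Plvap, Rgcc and Car8, with higher pooled Rsad2 levels of 1142 CPM in UIR and 898 in UUO, also held a larger share after injury, at 2.36% of control, 19.6% of UIR and 16.2% of UUO endothelial cells. So did a cluster led by Aplnr and Kcnj8, with 1292 CPM in UUO, at 0.323%, 1.76% and 4.68%. The part of these shares in the lower Rsad2 sum of UUO was not tested. Cluster sizes were not compared by a test, since the genes that define the clusters differ between groups.

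**Figure D3:**
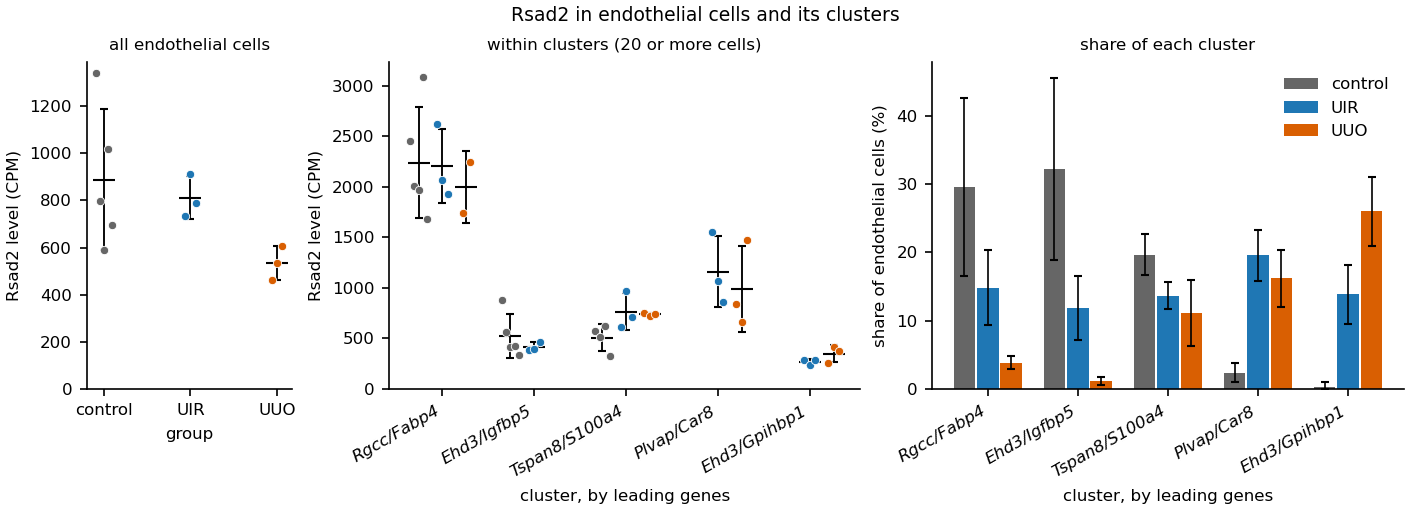
Rsad2 level in CPM in endothelial cells, overall and within the clusters (points, 1 for each library with at least 20 cells, with bars at the mean ± SD), beside the share of endothelial cells in each cluster in percent (bars, mean with SD over libraries, drawn down to 0 at most). The Rgcc and Fabp4 cluster has the highest level in every group and makes up 29.6% of control and 3.86% of UUO endothelial cells.

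At the level of cells, Rsad2 had at least 1 UMI in 74.3% of control endothelial cells (503 of 677, median depth 4368 UMIs), in 65.9% of UIR (median depth 4449) and in 53.4% of UUO endothelial cells (4771), shares that were not thinned to 1 depth. In PT cells, which had next to none of it, the shares were 0.187% of control (13 of 6969, median depth 3549 UMIs), 1.22% of UIR (33 of 2699, 2083) and 1.77% of UUO cells (4 of 226, 2189). Immune markers in the endothelial pools summed to 8.86 to 37.1 CPM in controls, 137 to 180 CPM in UIR and 181 to 315 CPM in UUO, and the lower Rsad2 level of UUO stayed called without the cells that carried at least 2 of them (-0.75, adjusted p = 0.00981).

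Among immune cells, macrophages raised Ifit3 and Ifi30 in both injuries, against 3.37% of all genes called higher in UIR and 5.91% in UUO. Ifit3 was at 16.6, 20.5, 28.8, 13.9 and 28.9 CPM in controls, at 45.8, 78.2 and 66.3 CPM in UIR and at 90.7, 144 and 67.3 CPM in UUO. Ifi30 was at 411, 274, 201, 254 and 247 CPM in controls, at 472, 441 and 472 CPM in UIR and at 611, 546 and 604 CPM in UUO. In both genes all injured libraries lay above all controls. Ifit3 rose by 1.59 ± 0.38 (adjusted p = 0.0153) and 2.18 ± 0.36 (0.000339), and Ifi30 by 0.73 ± 0.15 (0.00479) and 1.01 ± 0.15 (8.67e-05). The UUO calls of both were kept in all 27 alternatives. The UIR call of Ifit3 was lost at a mitochondrial limit of 15% and without both N or both AN controls, and that of Ifi30 under finer clustering. Irf7 was at 16.6 to 103 CPM in controls and at 134, 181 and 86.9 CPM in UUO. Its change in UIR did not pass (0.90, adjusted p = 0.151), and in UUO it rose by 1.21 ± 0.35 (0.0266), with 7 of 27 alternatives losing the call, among them those without control replicate 1, 2 or 4 or UUO replicate 1 or 2. The other antiviral members did not pass in the macrophage class as a whole, which sums clusters whose shares differed between groups. Isg15 was at 94.1 ± 51.6, 106 ± 32.1 and 129.7 ± 52.6 CPM (SD) in control, UIR and UUO, Oasl2 at 76.6 ± 35.7, 84.7 ± 18.1 and 97.8 ± 27.7 CPM, and Ifit2 at 32.1 ± 11.6, 41.9 ± 20.7 and 57.5 ± 22.8 CPM. Rsad2 was at 15.1 ± 9.26, 28.98 ± 16.1 and 41.3 ± 22.5 CPM and Ifit1 at 10.7 ± 8.98, 24.8 ± 13.3 and 31.95 ± 20.5 CPM, and in each of these 5 genes the control and injured libraries overlapped.

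Cxcl9 in macrophages spread widely among the controls, at 464, 115, 523, 60.1 and 96.2 CPM, and was at 75.2, 120 and 232 CPM in UIR and at 199, 212 and 139 CPM in UUO. Its changes of -0.74 (adjusted p = 0.384) and -0.45 (0.586) did not pass. Tubular RNA was lower after injury, with 15 tubular markers summing to 2044 to 5123 CPM in control, 1029 to 2200 in UIR and 224 to 432 in UUO macrophage pools. Its part in the macrophage values was not tested beyond the subtraction of free RNA. The macrophages of the groups fell into different clusters, of which 1 held 71.0% of control, another 47.0% of UIR and the last 58.1% of UUO macrophages. The main control cluster held only 16.06% of UIR and 14.64% of UUO macrophages. A member that did not pass in the class sum can still have changed within a cluster, which was not tested. In T and NK cells, summed into 1 class, no member passed in either injury, against 0.247% and 0.659% of all genes, and 3 had an unadjusted p under 0.05 in each comparison by edgeR. Rsad2 changed by 2.11 (adjusted p = 0.476) and 2.14 (0.284), Ifit1 by 1.31 and 1.41, Ifit3 by 1.18 and 1.28, and the other 5 tested members by 0.34 to 0.68. Cxcl9 had no UMI in control T and NK cells and was at 2.85 ± 1.60 CPM in UIR and 1.90 ± 0.79 CPM in UUO. The control pools of T and NK cells held only 21 to 30 cells.

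The difference between classes in the response was tested in joint fits with the library as a block, in 18 tests for each pair of classes. Between endothelium and macrophages 7 differences passed, of which that of Cxcl9 is not read as a difference, where 3.45% of all genes did in UIR and 6.96% in UUO. In UUO the endothelial change was below the macrophage change by 2.19 ± 0.46 for Rsad2 (adjusted p = 0.00131), 2.12 ± 0.35 for Ifit3 (2.82e-05), 1.65 ± 0.49 for Ifit1 (0.0275), 1.09 ± 0.33 for Ifit2 (0.0303) and 0.996 ± 0.29 for Irf7 (0.0277). In UIR, Ifit3 alone differed, by 1.40 ± 0.37 in the same direction (0.0183). For Cxcl9 the fitted difference in UUO was 2.42 in the other direction, but it passed the filter of the joint fit only through macrophages. In endothelium it was too sparse to test, at 0 to 2.97 CPM in controls (5 UMIs in all) and 3.15 to 7.28 CPM in UUO. The differences for Rsad2 and Ifit3 in UUO held in all 16 alternatives, and the others in 9 to 13.

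Between LOH cells and macrophages 4 differences passed, against 13.9% and 16.4% of all genes. LOH cells had the smaller change for Rsad2 in UIR (2.47 ± 0.64 lower, adjusted p = 0.00471) and in UUO (1.75 ± 0.63 lower, 0.0456, kept in only 6 of 16 alternatives) and for Ifi30 in UUO (0.86 ± 0.23 lower, 0.0062), and the larger change for Oasl2 in UUO (1.48 ± 0.43, 0.0116). The UIR difference for Rsad2 was lost without control replicate 4. Between endothelium and LOH cells 4 passed, against 17.9% and 23.1%. The endothelial change was smaller for Irf7 in both injuries, by 1.96 ± 0.68 (0.041) and 3.002 ± 0.61 (0.000272), and in UUO for Oasl2, by 1.69 ± 0.45 (0.00468), and Ifit3, by 1.46 ± 0.53 (0.0423). None of the 18 tests between T and NK cells and macrophages passed in edgeR, and their background was 1.92% and 2.69%.

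Ifi30 and Cxcl9 had their own order of classes, given here and below for classes with at least 20 cells in at least 2 libraries of a group. In UIR, Ifi30 was highest in migratory dendritic cells (2341 ± 511 CPM, SD over 2 libraries) and in type 2 conventional dendritic cells (1571 ± 45.3 CPM, n = 3), followed by type 1 conventional dendritic cells at 507 CPM and macrophages at 461 CPM, while the classes with 1 such UIR library stood at 707 CPM (monocytes) and 544 CPM (B cells). In UUO the order was migratory dendritic cells at 2044 CPM, type 2 dendritic cells at 1810 CPM, monocytes at 916 CPM, type 1 dendritic cells at 696 CPM, macrophages at 587 CPM and B cells at 443 CPM. Control libraries had enough cells only for macrophages among these classes, at 278 CPM. All are cells that present antigen, the setting in which this reductase is known. Cxcl9 in controls was almost confined to macrophages, at 252 ± 223 CPM (n = 5), and the next of the classes with enough cells was at 2.35 CPM. In UIR it was at 332 ± 315 CPM in type 1 dendritic cells, 142 CPM in macrophages, 128 CPM in type 2 dendritic cells and 88.4 CPM in Fibro 1. In UUO it was at 224 ± 182 CPM in type 2 and 220 CPM in type 1 dendritic cells, 183 CPM in macrophages and 123 CPM in migratory dendritic cells, and the spread between libraries was too wide to set these classes apart.

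**Figure D4:**
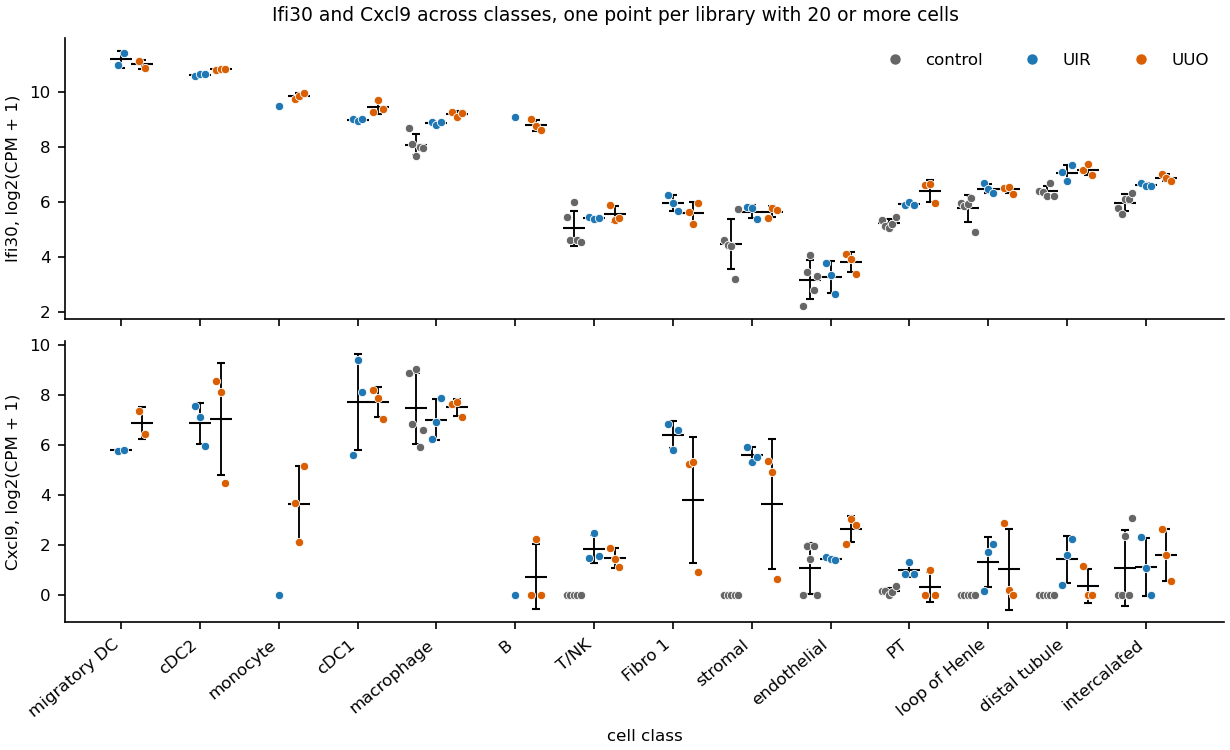
Levels of Ifi30 (top) and Cxcl9 (bottom), as log2(CPM + 1), in 14 cell classes, with 1 point for each library with at least 20 cells, colored by group, and bars at the mean ± SD. Ifi30 is highest in migratory and type 2 dendritic cells, and Cxcl9 in macrophages and dendritic cells.

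For the antiviral members the order was different. Rsad2 was highest in endothelium in all 3 groups, without overlap with the next class, which was Fibro 3 in controls (21.7 ± 11.7 CPM), type 1 dendritic cells in UIR (54.0 CPM) and neutrophils in UUO (146 ± 108 CPM). The 1 UIR library with enough neutrophils held Rsad2 at 396 CPM and Isg15 at 433 CPM. Isg15 led in endothelium (180 CPM) and T cells (170 CPM) of controls, in migratory dendritic cells (230 CPM) and endothelium (201 CPM) of UIR, and in neutrophils of UUO (298 ± 227 CPM), and these neighbours overlapped. Oasl2 in UUO was at 282 ± 205 CPM in neutrophils, 162 ± 34.5 CPM in monocytes, 144 CPM in intercalated cells and 114 CPM in endothelium, so that intercalated cells, near 0 in controls, stood in UUO among the classes with the highest level. Ifit3 in controls was highest in frTEC, at 468 and 651 CPM in the 2 control libraries with enough of these cells, against 108 ± 32.0 CPM in UIR and 119 ± 38.2 CPM in UUO. Of the control cells named frTEC, 60 of 86 lay in a cluster led by Aqp1, Bst1 and Fst, so the class does not hold the same cells in the 3 groups.

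The share of cells with UMIs of at least 2 antiviral members was compared after thinning every cell to 1000 UMIs, which left out 1514 control, 3717 UIR and 3003 UUO cells of lower depth. Endothelial cells had by far the largest share, of 36.1, 19.2, 11.5, 30 and 20.5% in controls, 20.7, 27.8 and 23.3% in UIR and 22.5, 22.4 and 22.3% in UUO. Libraries of all groups overlapped, and the exact two-sided permutation test over libraries gave p = 0.893 for UIR and 0.929 for UUO (both 0.929 after adjustment over 8 tests). The tubular share was 0.0738 to 0.274% in controls, 0.978, 1.41 and 1.62% in UIR and 2.21, 4.95 and 2.07% in UUO. Here no injured library overlapped the controls, and both tests gave exact p = 0.0357, the smallest that 5 against 3 libraries allow, which was 0.0714 after adjustment and so did not pass. The make-up of the tubule also differed. PT cells, with a low share in every group, made up 6969 of 8170 control, 2699 of 5728 UIR and 226 of 1605 UUO tubular cells before thinning. The part of this in the tubular share was not tested. Unthinned, the tubular shares were 1.09% in controls, 17.0% in UIR and 37.1% in UUO on average.

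Immune cells had shares of 1.12 to 5% in controls, 3.70, 8.05 and 9.59% in UIR and 6.48, 12.2 and 5.33% in UUO (exact p = 0.107 and 0.0357, adjusted 0.143 and 0.0714). In stroma the shares were 3.45% in control replicate 1 and 0 in the other controls, 0.625, 5.13 and 4.31% in UIR and 4.36, 5.98 and 3.47% in UUO (exact p = 0.0714 and 0.0357, adjusted 0.114 and 0.0714). Within the tubule, counted over pooled libraries and not tested, intercalated cells were at 0 of 191 in controls, which allows a share of up to 1.57% by counting error alone, at 28 of 553 in UIR (5.06%) and at 20 of 244 in UUO (8.197%). PT cells were at 2 of 5773 (0.0346%), 5 of 1979 (0.253%) and 0 of 157, which allows up to 1.91%, for control, UIR and UUO.

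**Figure D5:**
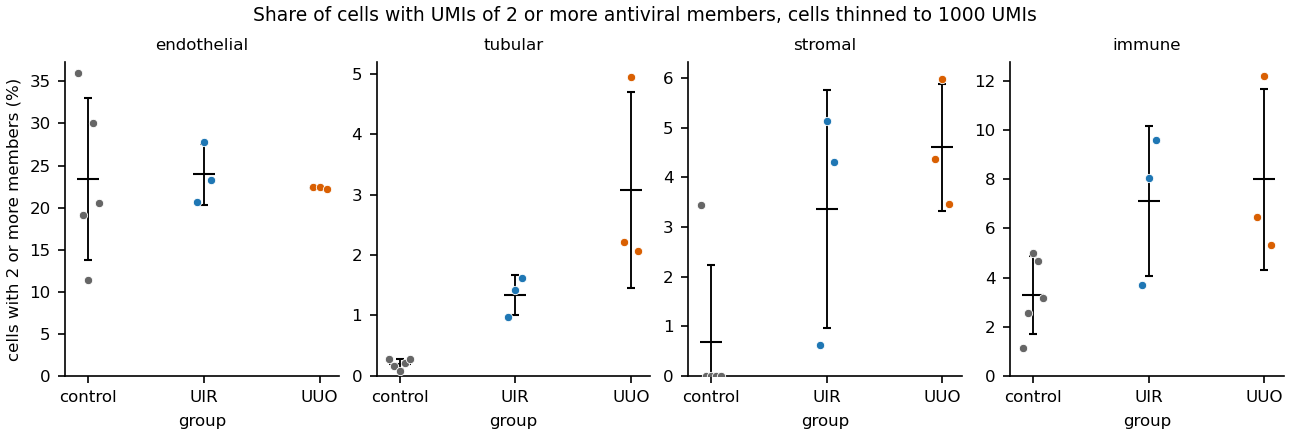
Percent of cells, thinned to 1000 UMIs, with UMIs of at least 2 antiviral members in endothelial, tubular, stromal and immune cells, with 1 point for each library and bars at the group mean ± SD. Endothelial shares overlap between groups at 11.5 to 36.1%, while tubular shares are at most 0.274% in controls and at least 0.978% in injured kidneys. Before thinning, PT cells made up 6969 of 8170 control, 2699 of 5728 UIR and 226 of 1605 UUO tubular cells.

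The other genes of the interferon pathway were read from a list of 117 genes, of which 109 were in the count tables. In intercalated cells 46 of 65 tested rose in UIR and 54 of 65 in UUO, where 9.43% and 13.1% of all genes were higher. None was lower in either, where 11.2% and 14.4% of all genes were lower. The median change of the listed genes was 1.80 and 2.14 against 0.00587 and 0.0145 for all genes. All 15 tested effectors of interferon-gamma type, such as the guanylate-binding proteins and immunoproteasome subunits, were among those that rose in both injuries, beside 20 and 24 of 25 type I effectors. The membrane protein Ifitm3, which blocks viral entry, rose by 5.12 ± 0.30 (adjusted p = 1.84e-10) in UIR and 5.43 ± 0.29 (1.75e-11) in UUO. Usp18, which removes Isg15 from proteins and restrains the receptor, rose by 5.77 ± 0.84 in UUO, and the chemokine Cxcl10 was higher in UUO than in UIR by 1.98 ± 0.32 (0.00149). DT cells had 39 of 52 tested genes higher in UIR and 37 in UUO (15% and 18.6% of all genes), led by Rtp4 at 5.30 ± 0.58 and 5.63 ± 0.59. They had 1 and 0 lower (16.6% and 19% of all genes). In PT cells 44 of 65 rose in UIR and 33 in UUO (15.1% and 12.7% of all genes), while 0 and 1 fell (9.02% and 9.15% of all genes). The listed genes that rose included the tethering factor Bst2 (3.62 ± 0.31 and 4.03 ± 0.42) and the immunoproteasome subunit Psmb8 (3.44 ± 0.25 and 4.10 ± 0.32). LOH cells, in which only 2 members rose, had 41 of 68 listed genes higher in UIR and 45 in UUO, where 17.9% and 20.5% of all genes were higher. They had 3 lower in each, where 14.5% and 16.8% of all genes were lower.

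In stroma 15 of 75 tested genes of the list rose in each injury (8.78% and 11.6% of all genes) and 0 and 1 fell (5.25% and 7% of all genes). The listed genes that rose were led by Ifi27l2a (4.83 ± 0.43 and 5.15 ± 0.42) and Ly6e (3.84 ± 0.26 and 3.80 ± 0.26). In endothelium 3 of 83 rose in UIR and 12 in UUO (1.31% and 6.11% of all genes), while 0 and 3 fell (0.999% and 6.5% of all genes). The 3 that fell in UUO are no more than the share of all genes. The listed genes that rose included the sensor adaptor Tmem173 (STING), by 1.60 ± 0.35 and 1.93 ± 0.33, and the signalling inhibitor Socs3, by 1.62 ± 0.26 and 1.62 ± 0.25. Macrophages had 3 and 8 of 89 higher, where the 3 of UIR are no more than the share of all genes (3.37%, and 5.91% in UUO), among them Ifitm2 at 0.99 ± 0.16 and 1.131 ± 0.16, and 1 lower in each injury (2.42% and 5.17% of all genes). T and NK cells had 3 and 4 of 86 higher (0.247% and 0.659% of all genes), among them Ifi27l2a at 1.38 ± 0.20 and 1.57 ± 0.20. They had 2 lower in each injury (0.257% and 1.24% of all genes). Of the ligands, over all kept cells, the listed interferon-alpha genes had 0 UMIs in every group, Ifnb1 had 0 in control, 3 in UIR and 1 in UUO, and the lambda genes Ifnl2 and Ifnl3 had 0. Interferon-gamma (Ifng), the only ligand with enough UMIs for a test and described for that reason, had 79, 288 and 242 UMIs. In T and NK cells it was at 401, 31.7, 74.6, 77.5 and 89.6 CPM in controls, at 32.7, 32.9 and 36.1 CPM in UIR and at 30.3, 35.5 and 19.5 CPM in UUO, with control replicate 1 far above the rest. It was called lower in UIR, with a change of -1.91 ± 0.38 on the log2 scale (edgeR adjusted p = 0.00814), and in UUO, with one of -2.20 ± 0.38 (0.000676). Without control replicate 1 neither call held, with changes of -0.95 (0.357) and -1.25 (0.0569), and the UIR call was also lost with DESeq2 and at a mitochondrial limit of 15%. The 15 tubular markers in these pools moved the same way, at a summed 1665 to 3113 CPM in controls, 871 to 1953 CPM in UIR and 165 to 316 CPM in UUO, and their part in the Ifng values was not tested. The lambda receptor gene Ifnlr1 was at 3.53 CPM in control, 11.5 in UIR and 13.8 in UUO intercalated cells, pooled over libraries.

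The genes with the most similar pattern to each member were found by Pearson's r of log2(CPM + 1) over 155 pools of 20 classes, a description in which points share libraries, depth and classes. Isg15 was closest to Bst2 (r = 0.84), Rsad2 to Oasl2 (0.73), Ifit1 to Isg15 (0.81), Ifit2 to Ifit3 (0.74), Irf7 to Parp14 (0.84) and Oasl2 to Ifitm3 (0.82). Ifit3 was closest to Ifit3b (0.82), a near-identical neighbour with which 24.04% of the 31-base stretches in its last 500 bases are shared, so that reads may be split between them and the Ifit3 values carry that uncertainty. Ifi30 and Cxcl9 went with other genes than the antiviral members, Ifi30 with Fgd2 (0.80) and Cxcl9 with Bcl2a1a (0.83).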

How the data were processed

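The UMI counts the authors deposited were raw, unfiltered gene by barcode matrices of 10x Genomics 3′ libraries, made with Cell Ranger 3.1.0 on the mm10 genome per the file headers and processing notes. They carry no correction for ambient RNA or doublets. Kidneys had been dissociated with a cold active protease. Cells were called against the empty droplets (at least 500 UMIs), and barcodes with over 30% mitochondrial or 5% hemoglobin UMIs, under 200 genes or among the 7.5% with the highest doublet score were left out. Clustering (scanpy 1.11.5, Leiden resolution 1) left out the 9 members, the pathway list and the naming markers, and the thresholds for naming a cluster were fixed only once the marker tables were known.

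UMIs were summed per class and library where at least 20 cells were available and at least 2 libraries of a group had them. The sums were tested with edgeR 4.0.16 (quasi-likelihood, filterByExpr, TMM) in R 4.3.3, 3 groups in one model, with Benjamini-Hochberg adjustment over all genes of the class. DESeq2 1.42.0 was an alternative. Shares of cells were compared with exact permutation tests, and intervals and limits at a count of 0 (3 counts) cover counting error only. The test was also tested on simulated data. The study's methods give as many mice as there are libraries in each group, and the labels tie no library to a mouse, so p-values measure the spread between libraries. Free RNA was estimated from the empty droplet profile and from markers of other compartments.

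The members and gene lists were chosen with earlier results of these data known. All 9 members were followed in each class, with the levels of those that results turn on, and from the pathway list up to 3 genes per class and comparison, with the largest change among those called, no overlap between groups and a mean of 20 CPM or more in the higher one, and for each member the genes with the highest correlation among those with a mean of at least 5 CPM. The alternatives that scaled by library size alone and that left out cells with immune markers were chosen after seeing the data. Control libraries held 91920461 to 110914244 UMIs in all, UIR libraries 82522753 to 117043590 and UUO libraries 49503312 to 60918546.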

Additional observations from a re-analysis of the deposited data

Results flagged for a closer look

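In the control groups of 5 libraries, 4 of 59 groups checked held a library far from the others by Dixon's criterion, where chance flags about 1 in 20. Isg15 in control LOH cells was at 70.8 CPM in control replicate 3 (26 UMIs) and at 9.55 to 22.9 CPM in the other controls. Ifit2 in control DT cells was at 8.78 CPM in control replicate 5 (8 UMIs) and at 0 to 1.63 CPM in the others, and Ifit1 in control principal cells at 40.8 CPM in control replicate 4 (29 UMIs) and at 6.47 to 12.2 CPM in the others. The share of stromal cells with at least 2 antiviral members was 3.45% in control replicate 1 and 0 in the other controls.

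The change after injury differed between cell classes for 15 pairs of a member and an injury in joint fits, given here as log2 differences of the changes. For endothelium minus macrophages they were -1.40 for Ifit3 in UIR and, in UUO, 2.42 for Cxcl9, -0.996 for Irf7, -2.19 for Rsad2, -1.09 for Ifit2, -2.12 for Ifit3 and -1.65 for Ifit1. For LOH cells minus macrophages they were -2.47 for Rsad2 in UIR and, in UUO, 1.48 for Oasl2, -0.86 for Ifi30 and -1.75 for Rsad2. For endothelium minus LOH cells they were -1.96 for Irf7 in UIR and, in UUO, -1.69 for Oasl2, -3.002 for Irf7 and -1.46 for Ifit3. In UIR, 1 of 9 members differed in each of these pairs of classes, where 13.9% of all genes did between LOH cells and macrophages and 17.9% between endothelium and LOH cells, so those 2 counts are no more than the share of all genes. Cxcl9 was too sparse to test in endothelium and passed the filter only through macrophages, so its value is not read as a difference. Each rests on the same 5 control libraries.

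An unnamed cluster of 53 UUO cells, led by Gzma, Ccl5 and Klra8, held the 7 antiviral members at a summed 2365 CPM. All of its cells came from 1 library. It had no control or UIR cell, and Ifit1 and Isg15 were among its 10 leading genes although clustering had not used them. The empty droplets, which were used only to estimate free RNA, held Isg15 at a mean of 2.56 CPM in control, 22.5 CPM in UIR and 64.6 CPM in UUO libraries.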

How the results depend on the processing

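Of 57 called pairs of a member and a class, 34 stayed called in every alternative that could test them, 23 were lost in at least 1 and 0 changed direction. Members called higher in UIR (25) became 45 without the filter on low counts and 10 at a mitochondrial limit of 15%, where fewer classes had enough cells (18 of the main calls lie in those classes), and those called lower (0) became 1 without the filter. Members called higher in UUO (25) became 45 without the filter, 16 with at least 50 cells per pool (17 in the same classes), 10 at the 15% limit (16 in the same classes) and 14 without cells carrying immune markers (21 in the same classes). Members called higher in UUO than in UIR (6) became 2 with DESeq2, 13 without the filter, 2 with at least 50 cells, 3 at the 15% limit, 1 with 15% of doublets left out, 2 without cells carrying immune markers, 2 with only those groups fitted and 11 with the replicate block, and those called lower (0) became 5 without the filter and 1 with only those groups fitted. Where no other cause is named, the cause was not tested.

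The endothelial share difference for UIR (0.502 percentage points) became -4.05 with at least 1 member, -0.380 with at least 3 and -4.92 without both N controls, and that for UUO (-1.05) became 0.0936 at the 15% limit and 0.169 without both AN controls. Differences between endothelium and macrophages (7) became 4 at the 15% limit and 2 after subtraction of free RNA, those between LOH cells and macrophages (4) became 0 at the 15% limit and 2 under finer clustering, and those between endothelium and LOH cells (4) became 8 without the filter, 0 at the 15% limit and 2 after subtraction of free RNA.

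Leaving out 1 library at a time gave 21 to 28 members higher and 0 to 1 lower in UIR, 17 to 27 higher and 1 to 1 lower in UUO, and 2 to 10 higher and 0 to 1 lower in UUO against UIR, where the count was 3 without UIR replicate 1, 10 without UUO replicate 1 and 2 without UUO replicate 2. Share differences ranged from -2.49 to 3.66 and -4.04 to 2.11 in endothelium, 0.997 to 1.32 and 1.94 to 3.38 in tubule, 1.78 to 4.03 and 3.23 to 4.60 in stroma and 2.57 to 5.52 and 2.60 to 6.04 in immune cells, for UIR and UUO. Differences between classes ranged from 2 to 8 (endothelium and macrophages, with 2 without control replicate 1, 4 without replicate 2 and 3 without replicate 4), 2 to 5 (LOH cells and macrophages, 2 without control replicate 4), 0 to 2 (T and NK cells and macrophages, 2 without control replicate 2) and 1 to 6 (endothelium and LOH cells, 1 without control replicate 1 and 2 without replicate 2, 4 or 5).

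Libraries that share a number in their titles were not treated as pairs, since the labels do not say that a number marks a shared mouse or day and the correlation of their deviations was above 0.1 for every pair in only 3 of 8 classes. The correlations ran from -0.135 to 0.617, with a median over classes of 0.41 for the libraries without a number, 0.172 for number 1 and 0.0732 for number 2. With the replicate block the counts called higher were 28 in UIR, 31 in UUO and 11 in UUO against UIR. The block changed no call in endothelium, and in LOH cells it added Ifit3 in UUO (1.51, adjusted p = 0.0197) and 5 members in UUO against UIR. It lost Ifi30 in stroma in both injuries and in DT cells in UUO. Calls that it gained outside stroma and LOH cells are not listed here. Library size alone in place of TMM shifted the median of all genes by -0.0785 to 0.428 on the log2 scale, depending on the class. Control pools of LOH, stromal, intercalated and T and NK cells held 21 to 64 cells, and a call missed in them does not show that a member did not change.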

Other observations

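Several small classes held the members at high levels and could not be compared with control libraries, which had too few of these cells. In neutrophils, UUO replicates 1 to 3 held Isg15 at 303, 523 and 68.8 CPM, Rsad2 at 200, 217 and 21.4 CPM and Oasl2 at 242, 504 and 99.7 CPM. UUO replicate 3 was the lowest for each of these genes. UIR replicate 2, the only UIR library with at least 20 neutrophils (27 cells), held Isg15 at 433 CPM, Rsad2 at 396 CPM and Oasl2 at 565 CPM. Monocytes of UUO held Irf7 at 282, 265 and 204 CPM and Ifi30 at 841, 921 and 986 CPM.

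Podocytes, the filtering cells of the glomerulus, held Ifit2 in all 5 controls, at 28.5 to 41.1 CPM, and was at 37.8, 39.7 and 41.9 CPM in UIR and 23.0, 82.4 and 48.3 CPM in UUO. Rsad2 and Oasl2 had no UMI in control podocytes. In frTEC, Irf7 was at 0 and 3.44 CPM in the 2 control libraries with enough cells, at 22.3, 26.4 and 41.6 CPM in UIR and at 51.2, 84.6 and 58.5 CPM in UUO, whereas Ifit3 was at 468 and 651 CPM in those controls, at 140, 75.7 and 108 CPM in UIR and at 156, 122 and 79.3 CPM in UUO. Neither was tested. Plasmacytoid dendritic cells, known as a major source of type I interferon, numbered 6 in UIR and 17 in UUO, with 18 and 129 Irf7 UMIs.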
